A study of Mus musculus with 15 samples.

Results

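The comparison described here is the vessel by time interaction in cultured mouse hepatocytes, that is, the difference between a rotating wall vessel (RWV) and a tissue culture dish (TCD) at 24 h minus the same difference at 4 h. It covered all probe sets with 1 gene symbol in the platform annotation, 34945 of the 45101 on the array. After probe sets that followed the array background had been set aside, 12423 genes were tested, each by 1 probe set. It used 12 of the 15 arrays as groups, with the other 3, from fresh cells, adding to the estimate of the spread. All cells were primary hepatocytes from male C57BL/6 mice, with no added agent or mutation named in the labels. The 4 groups were cells kept in the RWV for 24 h, where they form three-dimensional aggregates, cells kept as monolayers in the TCD for 24 h, and the same vessels at 4 h. Each group had 3 arrays from independent biological replicates. Freshly isolated cells (t0) set the zero of the scale.

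Hepatocytes taken out of the liver lose polarity and flatten as they attach to plastic, and on spreading they build stress fibres and turn on serum response and YAP target genes while genes of the differentiated liver decline. In aggregates the cells attach to each other instead, and a rotating vessel keeps them suspended. The interaction separates genes whose vessel difference arose between 4 h and 24 h from those in which it was present early and then lost.

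The values are log2 signals with the fresh median of each probe set subtracted, so a value of 1 is a 2-fold rise over fresh cells, and no absolute level is kept. Low signals are compressed toward a floor by the authors' background correction, which limits how large a difference can become. Values near 0 in fresh and cultured cells alike may be an absent signal and do not show equal expression. A positive interaction means that RWV minus TCD was higher at 24 h than at 4 h. Errors after ± are standard errors from limma, and a call is a Benjamini-Hochberg adjusted p below 0.05 over all 12423 genes in that comparison. In bulk RNA of this kind, fewer cells of a type and less RNA per cell cannot be told apart.

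The number of arrays, 3 a group, limits the precision, and the median standard error of the interaction was 0.29. TCD 4 h replicate 2 stood apart: the median over 9 spiked hybridisation controls was 1.09 on it, against -0.754 to 0.171 on the other 14 arrays. Its weight by limma's array weights was 0.171, the lowest of the 15. The controls also differed with time. Their median was -0.754 to -0.498 in the RWV and -0.548 to -0.433 in the TCD at 24 h. At 4 h it was -0.306 to 0.023 in the RWV, and -0.081 and 0.119 on TCD replicates 1 and 3. The part of this difference in the results was not tested. The gap between 3′ and 5′ Actb probe sets, a sign of RNA integrity, averaged -0.23 at 24 h in the RWV and -0.44 at 24 h in the TCD, and -0.26 at 4 h in the RWV and -0.21 at 4 h in the TCD. For Gapdh probe sets the gap averaged -0.06 in the RWV and -0.04 in the TCD at 24 h. It averaged -0.03 in the RWV and 0.02 in the TCD at 4 h. The part of RNA integrity in the results was not tested. Of 13 measured hepatocyte markers 1 had a higher and 1 a lower interaction, against 4.93% and 7.73% of all genes. Alb did not pass the interaction test (interaction -0.12 ± 0.11, adjusted p = 0.494 by limma).

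The interaction was called in 1573 genes, 12.7% of those tested. It was higher in 613 genes (4.93%) and lower in 960 (7.73%), and 1102 of the calls were at least 2-fold, 391 higher and 711 lower. Without TCD 4 h replicate 2 the counts were 766 higher and 881 lower. With no background filter the balance turned round, to 2043 higher and 1104 lower. RWV and TCD differed in 1890 genes at 24 h (15.2%), with 1038 higher in the RWV (8.36%) and 852 lower (6.86%). At 4 h they differed in 766 genes (6.17%), with 683 higher in the RWV (5.5%) and 83 lower (0.668%). Leaving out RWV 24 h replicate 2 lowered the 24 h count to 1234. The 4 h count was 497, 458 and 390 without RWV 4 h replicate 1, 2 and 3, and 506 without TCD 4 h replicate 2. At both times 139 genes were called, 85 in the same direction and 54 in opposite directions. Whether this overlap is more or less than that of unrelated calls was not tested.

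Genes with a called interaction fell into classes by their calls at the 2 times. In 972 genes (7.82% of those tested) the vessel difference appeared, being called at 24 h and not at 4 h. In 351 genes (2.83%) it vanished, being called at 4 h and not at 24 h. In 54 genes (0.435%) it reversed, being called at both times with opposite signs. It was called at both times in the same direction in 4 genes and at neither time in 192. A missing call does not show that the vessels were equal at that time, so that estimates matter beside calls. A further 779 genes were called at 24 h only and 276 at 4 h only without a called interaction, and they are in no class.

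**Figure D1:**
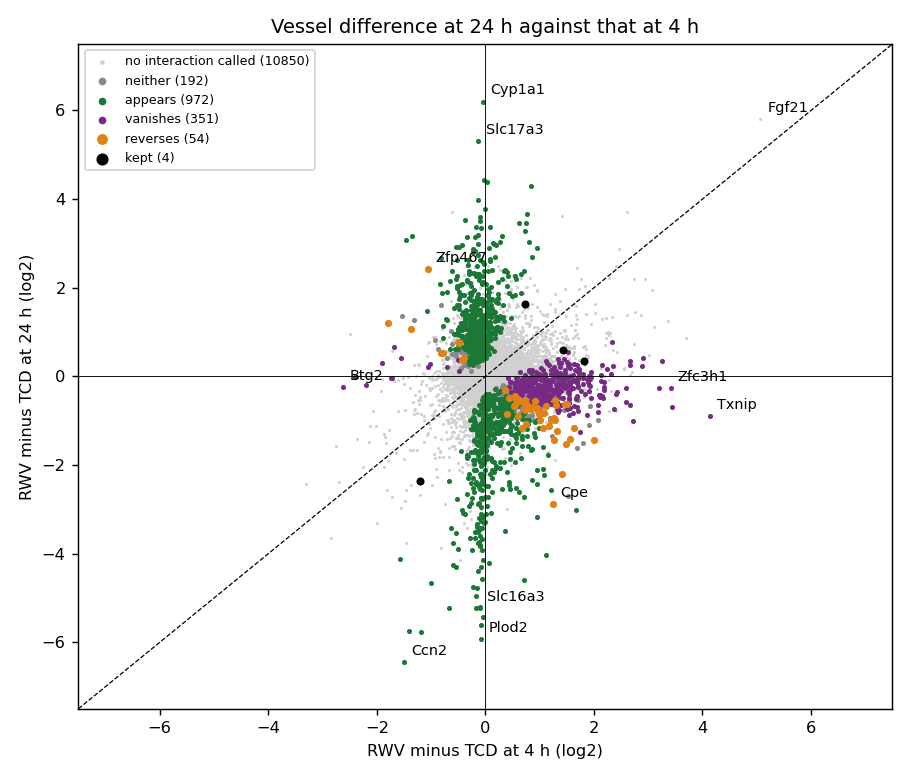
RWV minus TCD at 24 h (vertical axis, log2) against RWV minus TCD at 4 h (horizontal axis, log2) for the 12423 genes tested, 1 point a gene, coloured by class. The dashed line marks equal differences. The 972 appearing genes lie near the vertical axis, and the 351 vanishing genes lie near the horizontal axis, 338 of them to the right of zero.

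The class medians on each array differed by vessel and time. Among the 551 appearing genes with a higher interaction, the medians lay between -0.80 and -0.57 on the RWV arrays and between -1.84 and -1.56 on the TCD arrays at 24 h. At 4 h they lay between -0.48 and -0.40 in the RWV and between -0.41 and -0.23 in the TCD. In these genes the TCD values at 24 h stood apart. In the RWV 24 h was called lower than 4 h in 206 of them and higher in 134. In the TCD it was called lower in 441 and higher in 16. Among the 421 appearing genes with a lower interaction, medians at 24 h lay between 0.46 and 0.65 in the RWV and between 1.90 and 2.24 in the TCD. In the RWV 24 h was called higher than 4 h in 131 of them and lower in 73. In the TCD it was called higher in 364 and lower in 32. The 338 vanishing genes with a lower interaction had medians of 0.65 to 0.74 in the RWV at 4 h and -0.80 to -0.22 in the TCD at 4 h. At 24 h both vessels lay above the 4 h dish, at 0.77 to 0.82 in the RWV and 0.98 to 1.06 in the TCD. In the RWV 24 h was called higher than 4 h in 88 of these genes and lower in 61. In the TCD it was called higher in 295 and lower in 5. These medians and counts describe genes chosen by their calls and are no separate test. The shares of all genes called between 4 h and 24 h are not given here, so the counts cannot be set against them. The genes with the largest interactions in each class, described below, were named only if the vessels did not overlap at the called time. Without RWV 24 h replicate 2, 366 genes appeared with a higher interaction.

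**Figure D2:**
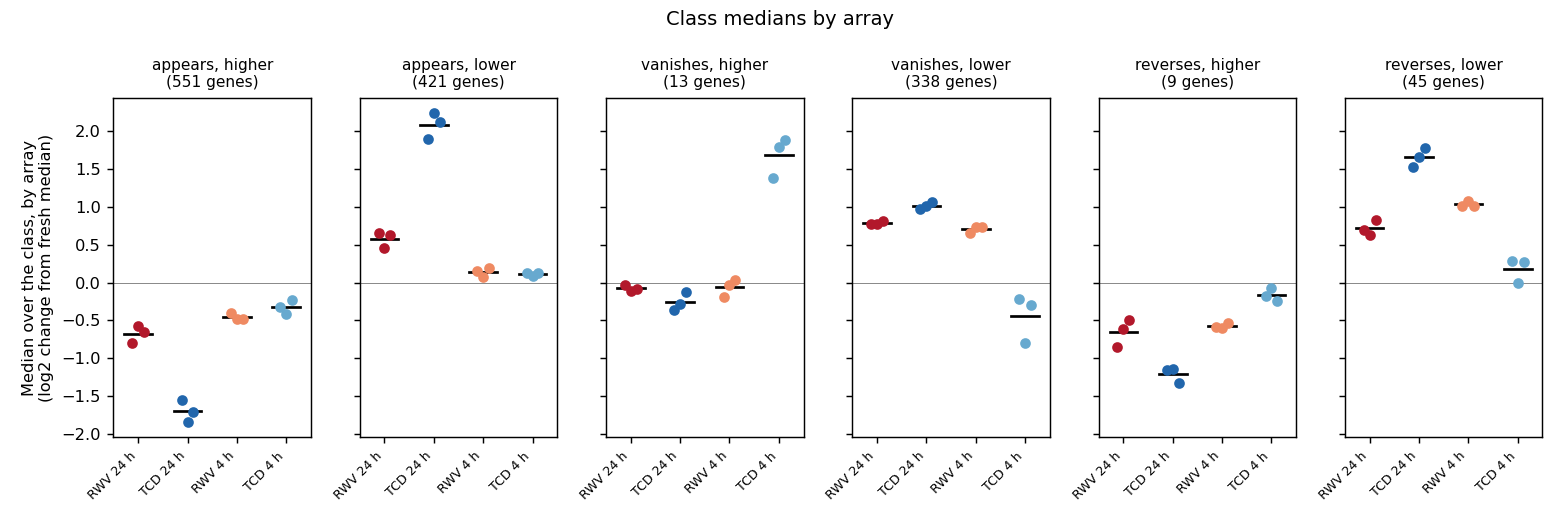
Median over the genes of each class on each of the 12 cultured arrays (log2 change from the fresh median), with 1 panel for each class and direction of the interaction; points are arrays and bars are means of 3. TCD at 24 h stands apart in the appearing classes, and TCD at 4 h stands apart in the vanishing classes.

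The largest appearing gene with a higher interaction was Cyp1a1, a cytochrome P450 that is the classical target of the aryl hydrocarbon receptor. It read 7.71, 5.95 and 5.46 in the RWV at 24 h and 0.64, -0.10 and -0.03 in the TCD at 24 h, against -0.05, -0.09 and 0.07 in the RWV at 4 h and 0.04, 0.03 and 0.02 in the TCD at 4 h. Its RWV arrays at 24 h alone rose far above fresh cells, with no overlap with any other group. The vessel difference was 6.20 ± 0.42 at 24 h and -0.05 ± 0.42 at 4 h, and the interaction was 6.25 ± 0.60 (adjusted p = 0.000105). Nqo1, a quinone reductase that both the aryl hydrocarbon receptor and NRF2 induce, read 1.80, 2.10 and 1.48 in the RWV and -0.53, -0.03 and -0.34 in the TCD at 24 h, and -0.41 to 0.16 in the RWV and -0.40 to 0.36 in the TCD at 4 h. Its interaction was 2.15 ± 0.38 (adjusted p = 0.00392). Of the 7 measured aryl hydrocarbon receptor genes, 3 had a higher interaction and 0 a lower one, against 4.93% and 7.73% of all genes, Aldh1a7 being the other one (1.12 ± 0.17, adjusted p = 0.00159). Cyp1a2 and Tiparp, also standard targets of the receptor, had 0.20 (adjusted p = 0.659) and 0.67 (adjusted p = 0.375) and were not called. The list median was 0.67, and the median over all genes tested was 0.00. Of 12 listed genes 10 were on the array, and those of them not measured were set aside as background. A gene at background elsewhere, as Cyp1a1 may be, passes that filter only through a group where it is high. The count and median of the 7 are therefore no separate support for a rise in the RWV.

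The 250 bases before the Cyp1a1 start are shown because Cyp1a1 had the highest interaction, with motif matches in capitals (RefSeq, GRCm38.p6, chr9:57697363-57697612, plus strand). One match is GCGTG, the core that the aryl hydrocarbon receptor binds, at -54 to -50 from the start. The other fits the CArG box, the element of serum response factor, at -32 to -23, and overlaps the letters TATAAA.
Cyp1a1: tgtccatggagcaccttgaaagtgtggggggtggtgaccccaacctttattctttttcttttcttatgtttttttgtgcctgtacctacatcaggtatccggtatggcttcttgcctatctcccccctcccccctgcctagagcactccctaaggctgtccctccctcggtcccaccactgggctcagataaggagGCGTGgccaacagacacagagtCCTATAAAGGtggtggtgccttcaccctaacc

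The core GCGTG, read on both strands, occurs in 28.2% of the 32851 promoter windows in that table, in 44% of those of tested genes and in 39.8% of those of appearing genes with a higher interaction. A match is a run of letters and no evidence of binding.

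Lepr, the leptin receptor, and Abcc12, an ABC transporter family member, showed the same kind of rise in the RWV. Lepr read 3.24, 4.53 and 5.14 in the RWV and -0.06, -0.08 and -0.09 in the TCD at 24 h, and -0.10, -0.01 and 0.36 in the RWV and 0.03, 0.05 and 0.06 in the TCD at 4 h. All 3 RWV arrays at 24 h were above every other array, and the interaction was 4.35 ± 0.48 (adjusted p = 0.000232). Both other probe sets of Lepr off the background were called in the same direction. Abcc12 read 4.13, 4.73 and 5.55 in the RWV and 1.60, 0.43 and 0.47 in the TCD at 24 h, -0.33 to 0.18 in the RWV at 4 h and 0.01 to 0.16 in the TCD at 4 h, for an interaction of 4.10 ± 0.49 (adjusted p = 0.000406).

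The other appearing genes at the top of this direction were lower in the dish at 24 h than in any other group. Slc17a3, a sodium phosphate and urate transporter of the SLC17 family, read -2.46, -1.49 and -1.74 in the RWV at 24 h and -6.78, -7.79 and -7.03 in the TCD at 24 h, and -1.37, -1.16 and -1.83 in the RWV at 4 h and -1.50, -0.96 and -1.49 in the TCD at 4 h. All cultures were below fresh cells, and the dish at 24 h was far below the rest. The interaction was 5.44 ± 0.45 (adjusted p = 3.42e-05), and 24 h minus 4 h was -0.45 ± 0.32 in the RWV (adjusted p = 0.311) and -5.88 ± 0.32 in the TCD (adjusted p = 3.63e-08). Baat, which joins bile acids to taurine or glycine, read -1.68, -1.16 and -1.66 in the RWV and -5.46, -6.18 and -6.13 in the TCD at 24 h, and -0.87, -0.48 and -0.78 in the RWV and -0.80, -0.48 and -0.77 in the TCD at 4 h. The groups did not overlap at 24 h, which the rule for naming required, and overlapped at 4 h. The interaction was 4.45 ± 0.30 (adjusted p = 6.7e-06). Paqr9, a membrane protein of the progestin and adipoQ receptor family, had values of -3.80 to -2.23 in the RWV and -6.69 to -6.23 in the TCD at 24 h, with an interaction of 3.91 ± 0.46 (adjusted p = 0.000376). Hykk, hydroxylysine kinase, had -6.13 to -4.34 in the RWV and -8.65 to -7.88 in the TCD at 24 h, and -5.40 to -3.93 in the RWV and -4.62 to -2.86 in the TCD at 4 h, so that all cultures were below fresh cells (interaction 4.51 ± 0.86, adjusted p = 0.00601). N4bp2l1 differed in the opposite direction at 4 h without passing the test there (-1.46 ± 0.42, adjusted p = 0.0622), and had 3.07 ± 0.42 at 24 h and an interaction of 4.53 ± 0.59 (adjusted p = 0.000781). Without RWV 24 h replicate 2, or without TCD 4 h replicate 2, N4bp2l1 was in the reversing class.

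**Figure D3:**
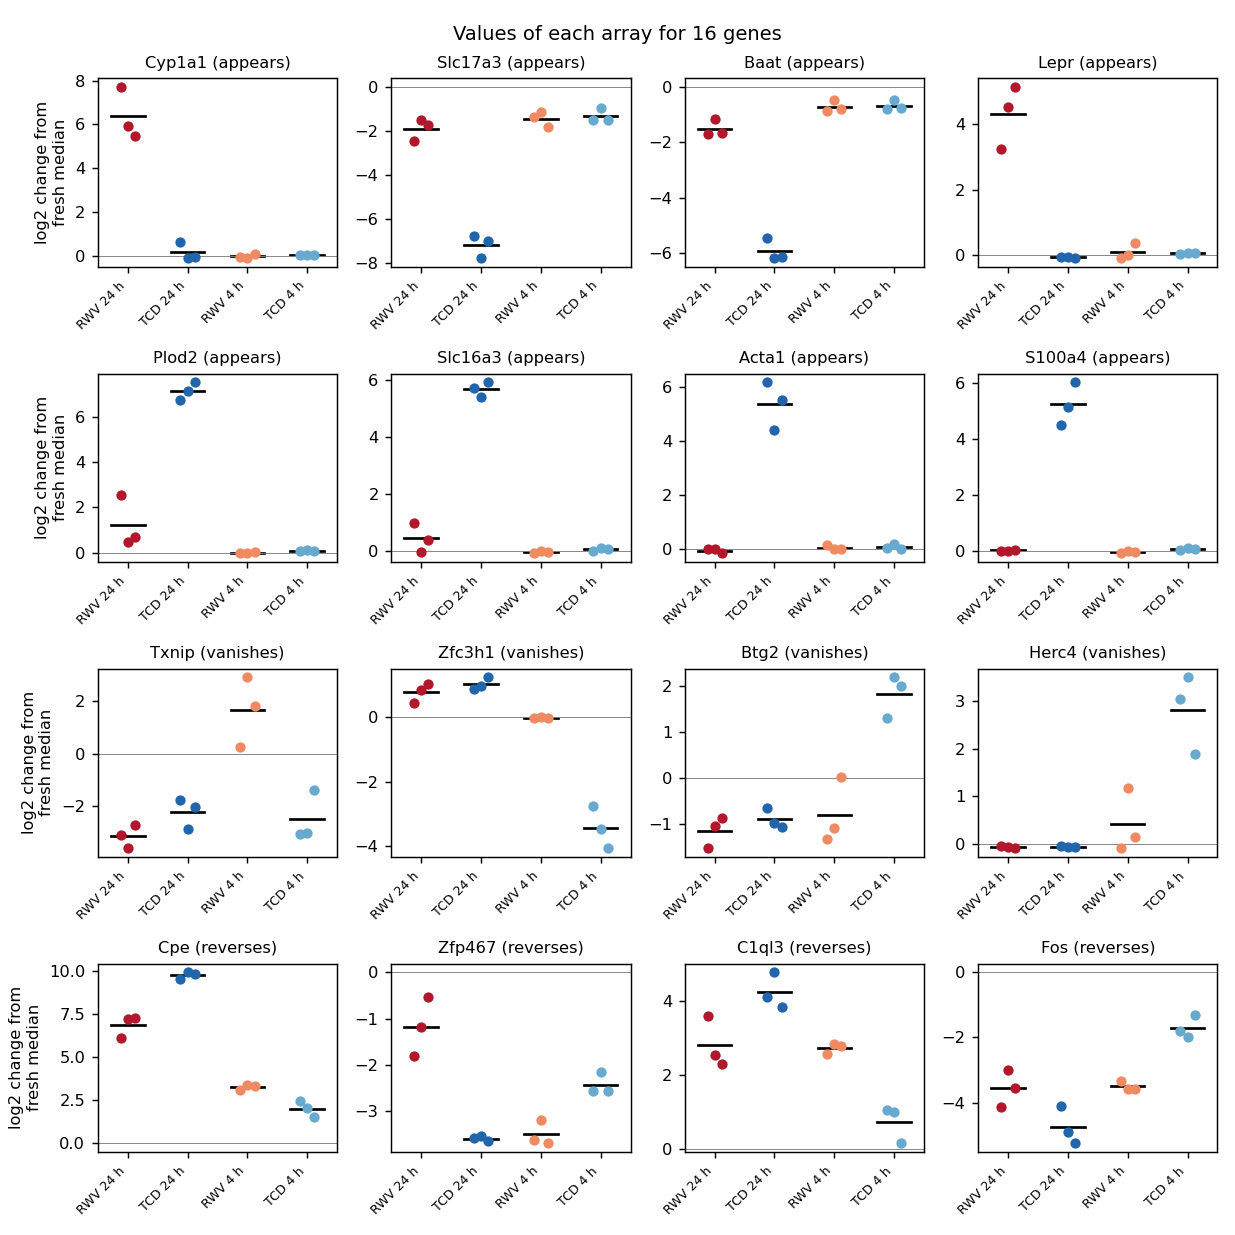
Values of each array (log2 change from the fresh median) for 16 genes of the 3 main classes, with columns for RWV and TCD at 24 h and RWV and TCD at 4 h; points are arrays and bars are means of 3. In the first 2 rows 1 group at 24 h stands apart, in the third row 1 group at 4 h stands apart, and in the last row the order of RWV and TCD turns round.

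Liver transcription factors were among the lists with the most appearing genes of this direction. Of 33 measured, 9 had a higher interaction and 0 a lower one, against 4.93% and 7.73% of all genes, and the list median was 0.82. Esr1, the oestrogen receptor, had the highest value (3.12 ± 0.81, adjusted p = 0.0263), but adjusted p was 0.052 to 0.0673 without RWV 24 h replicate 2 or 3, RWV 4 h replicate 3, TCD 24 h replicate 2 or 3, or TCD 4 h replicate 2. Nfia, a nuclear factor I protein, had 2.68 ± 0.77 (adjusted p = 0.0418) and kept its call only without RWV 24 h replicate 1 or TCD 4 h replicate 3, with adjusted p up to 0.0995 in the other 10 fits that each left out an array. Hlf, a PAR domain factor of the clock output, kept its call in all 12 such fits and had 2.51 ± 0.50 (adjusted p = 0.00743). The vessel difference in Hlf was 2.60 ± 0.35 at 24 h and 0.09 ± 0.35 at 4 h. Hnf4a, the nuclear receptor that sets hepatocyte identity, and Cebpa did not pass the interaction test (1.03 ± 0.32, adjusted p = 0.0557, and 0.82 ± 0.25, adjusted p = 0.0502), although both were called higher in the RWV at 24 h. Cebpa passed in 8 alternative fits, with adjusted p down to 0.0413 without TCD 24 h replicate 1, and Hnf4a passed in 6, down to 0.0204 without TCD 24 h replicate 1. For Hnf4a, 1 of 3 other probe sets was called higher.

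Glucose sensing and carbohydrate genes were called mostly in the same direction. Of 12 measured glucose sensing genes 5 had a higher interaction and 1 a lower one, against 4.93% and 7.73% of all genes. Of 24 genes of gluconeogenesis and glycogen 10 had a higher and 3 a lower one. The list medians were 0.61 and 0.51. Mlxipl encodes ChREBP, the transcription factor that responds to glucose in hepatocytes. It read 0.07, 0.35 and 0.25 in the RWV and -2.08, -2.17 and -2.31 in the TCD at 24 h, and -0.39, 0.02 and 0.04 in the RWV and -0.70, -0.56 and -0.17 in the TCD at 4 h. The dish at 24 h alone was clearly below fresh cells, and the interaction was 2.04 ± 0.21 (adjusted p = 0.000173). Tkfc, which phosphorylates triose from fructose, had 1.95 ± 0.44 (adjusted p = 0.0133), and Gys2, the liver glycogen synthase, had 2.45 ± 0.41 (adjusted p = 0.00299). Pck1, the rate-limiting enzyme of gluconeogenesis, was called the other way. It read -10.91, -10.92 and -10.94 in the RWV and -6.32, -6.57 and -7.10 in the TCD at 24 h, and -1.06, -1.79 and -1.91 in the RWV and -0.58, -1.51 and -0.89 in the TCD at 4 h. Both vessels were far below fresh cells at 24 h, the RWV further, so that the interaction was -3.67 ± 0.49 (adjusted p = 0.000889). The 3 RWV values lay close together, and whether they are at the floor of the signal was not tested. Ppp1r3c, a glycogen targeting subunit of protein phosphatase 1, also had a lower interaction (-3.38 ± 0.91, adjusted p = 0.0311), with adjusted p of 0.063 to 0.0774 without RWV 24 h replicate 1 or 3, RWV 4 h replicate 2 or 3, TCD 24 h replicate 2 or 3, or TCD 4 h replicate 1, and of 0.13 for the mean of its probe sets.

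Of 30 measured genes of the oxidative stress response, 9 had a higher interaction and 0 a lower one, against 4.93% and 7.73% of all genes. The 9 all appeared at 24 h, and the list median was 0.47. Gstm3 and Gstm4, glutathione S-transferases of the mu class, had 2.85 ± 0.49 (adjusted p = 0.00359) and 2.77 ± 0.46 (adjusted p = 0.00299). The mu class genes are near-identical copies, and their probe sets may share signal. Hmox1, Gclm and Srxn1, standard NRF2 targets, had interactions of -1.11, 0.11 and -0.12 that were not called.

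Transporters and bile acid genes gave counts in both directions. Of 38 transporters 9 had a higher and 3 a lower interaction, against 4.93% and 7.73% of all genes. The lower count of transporters was near the share of all genes. Of 15 bile acid synthesis genes 4 had a higher and 2 a lower interaction. Cyp8b1, the sterol 12-alpha-hydroxylase that sets the cholic acid share, had a vessel difference of 3.14 ± 0.49 at 24 h and -0.34 ± 0.49 at 4 h, and an interaction of 3.48 ± 0.69 (adjusted p = 0.00751). Slc17a1, a phosphate transporter like Slc17a3, had 3.61 ± 0.66 (adjusted p = 0.00476). Akr1d1, the steroid 5-beta-reductase of bile acid synthesis, was lower at -2.58 ± 0.56 (adjusted p = 0.0118), as was Slco2a1, a prostaglandin transporter, at -3.20 ± 0.36 (adjusted p = 0.000315).

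Of 32 plasma proteins and apolipoproteins 4 had a higher and 0 a lower interaction, against 4.93% and 7.73% of all genes. Of 32 coagulation and complement genes 6 had a higher and 1 a lower one. Mttp and Apob, which assemble and carry very low density lipoprotein, had 2.16 ± 0.29 (adjusted p = 0.000889) and 1.34 ± 0.21 (adjusted p = 0.00207). The clotting factors F7 and F5 had 1.32 ± 0.20 (adjusted p = 0.00173) and 1.20 ± 0.20 (adjusted p = 0.00292). The list medians were -0.07 and 0.32. In fatty acid oxidation 8 of 36 had a higher and 3 a lower interaction, and in the urea cycle and amino acid breakdown 6 of 44 had a higher and 5 a lower one (3 lower without TCD 4 h replicate 2). Fabp1, the liver fatty acid binding protein, was lower at -1.69 ± 0.31 (adjusted p = 0.00475), and Hpd, of tyrosine breakdown, was lower at -1.92 ± 0.37 (adjusted p = 0.00608). Gjb2 and Gjb1, which form the gap junctions of hepatocytes, had 2.77 ± 0.38 (adjusted p = 0.00108) and 1.49 ± 0.30 (adjusted p = 0.00799).

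Among appearing genes with a lower interaction, most of the largest lay close to the fresh value at 4 h in both vessels and were far above it in the dish at 24 h. Plod2, a lysyl hydroxylase that prepares collagen for cross-linking, read 2.54, 0.46 and 0.68 in the RWV and 6.75, 7.15 and 7.55 in the TCD at 24 h, and 0.00, -0.03 and 0.02 in the RWV and 0.07, 0.09 and 0.06 in the TCD at 4 h. The dish at 24 h stood above all other arrays, and the RWV at 24 h was next. The interaction was -5.85 ± 0.58 (adjusted p = 0.000131), and a further probe set was called in the same direction. Slc16a3 encodes MCT4, the lactate exporter of glycolytic cells. It read 0.96, -0.04 and 0.36 in the RWV and 5.70, 5.38 and 5.92 in the TCD at 24 h, and -0.09, -0.02 and -0.06 in the RWV and 0.00, 0.08 and 0.05 in the TCD at 4 h. No dish array at 24 h came near any other array, and the interaction was -5.14 ± 0.29 (adjusted p = 1.11e-06). S100a4, a calcium-binding protein of motile and mesenchymal cells, read 0.02, 0.01 and 0.05 in the RWV and 4.50, 5.15 and 6.02 in the TCD at 24 h, and -0.07 to 0.01 in the RWV and 0.05 to 0.11 in the TCD at 4 h (interaction -5.09 ± 0.37, adjusted p = 1.36e-05).

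Acta1, the skeletal muscle actin and a target of serum response factor, read -0.03, -0.02 and -0.17 in the RWV and 6.18, 4.41 and 5.51 in the TCD at 24 h, and 0.15, -0.03 and -0.02 in the RWV and 0.03, 0.18 and 0.00 in the TCD at 4 h. It stayed at the fresh value in the RWV at both times and in the dish at 4 h. The interaction was -5.40 ± 0.44 (adjusted p = 2.77e-05). Tmem108, a transmembrane protein, had the smallest adjusted p of the genes described. It read -0.04, -0.09 and -0.06 in the RWV and 4.90, 5.45 and 5.12 in the TCD at 24 h, with an interaction of -5.04 ± 0.20 (adjusted p = 4.67e-08). Serpinb9g, a serpin from a cluster of near-identical copies, had 2.20 to 3.42 in the RWV and 8.16 to 8.83 in the TCD at 24 h, so that it was above fresh cells in both (interaction -5.54 ± 0.37, adjusted p = 6.7e-06). Nupr1, a stress-induced chromatin protein, was above fresh cells in every culture. It read 6.20, 4.79 and 5.19 in the RWV and 9.12, 9.86 and 9.27 in the TCD at 24 h, and 5.83, 5.33 and 6.43 in the RWV and 5.13, 4.08 and 5.04 in the TCD at 4 h, with an interaction of -5.14 ± 0.55 (adjusted p = 0.000212). Lce1f, a late cornified envelope gene of a family of close copies, varied more, with 3.38, 6.76 and 5.28 in the TCD at 24 h and -0.15, 2.78 and 0.65 in the RWV at 4 h (interaction -5.30 ± 1.15, adjusted p = 0.0114).

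The 250 bases before the starts of Acta1 and Slc16a3 are shown because these genes rose in the dish and carry motifs tied to the lists below (RefSeq, GRCm38.p6, Acta1 at chr8:123894776-123895025, minus strand, and Slc16a3 at chr11:120948817-120949066, plus strand). Capitals in Acta1 mark a CArG box at -73 to -64 from the start and CATTCC, the core that TEAD factors bind as partners of YAP, at -46 to -41. Capitals in Slc16a3 mark ACGTG, the core of the hypoxia response element, at -27 to -23 and again at -14 to -10.
Acta1: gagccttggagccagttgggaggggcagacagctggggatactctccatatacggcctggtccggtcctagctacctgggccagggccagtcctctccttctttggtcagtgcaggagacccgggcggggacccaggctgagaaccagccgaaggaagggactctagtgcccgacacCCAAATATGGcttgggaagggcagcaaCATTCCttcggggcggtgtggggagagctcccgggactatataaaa
Slc16a3: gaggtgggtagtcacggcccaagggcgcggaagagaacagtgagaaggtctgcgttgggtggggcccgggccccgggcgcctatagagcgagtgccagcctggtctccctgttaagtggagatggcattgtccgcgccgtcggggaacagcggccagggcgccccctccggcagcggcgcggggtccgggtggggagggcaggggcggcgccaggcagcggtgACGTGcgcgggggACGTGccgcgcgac

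Read on both strands, a CArG box occurs in 1.18% of the windows of tested genes and in 2.96% of those of appearing genes with a lower interaction. CATTCC occurs in 10.6% and 8.88% of these windows, and ACGTG, which is also part of the E-box CACGTG, in 21.6% and 24.6%. TGANTCA, the AP-1 site, occurs in 4.65% and 4.73%, and TGACGTCA, the CRE, in 2.56% and 3.85%. Among appearing genes with a higher interaction, the element of serum response factor was found in 2.04% of 442 windows. That is also above the share of tested genes, so the higher share was not limited to genes with a lower interaction, which had 338 windows. None of these shares was tested. Acta1 and Slc16a3 were picked for their motifs, and other genes that were higher in the dish at 24 h lacked them. The windows of Tpm2, S100a4 and Serpinb9g had no match to any motif searched, and neither window of Hk1 had ACGTG. Nupr1 and Tmem108 each had a window with ACGTG as part of CACGTG.

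Of 30 measured YAP and serum response factor targets, 0 had a higher and 7 a lower interaction, all appearing at 24 h, against 4.93% and 7.73% of all genes. The list median was -0.62. Of 35 targets on the array, those not measured were set aside as background. A gene at background elsewhere passes that filter only through a group where it is high. Such genes can raise the lower share, and their part in it was not tested. Ccn2, a matricellular protein and a standard YAP target, read 3.06, 3.18 and 2.84 in the RWV and 9.09, 9.49 and 9.86 in the TCD at 24 h, and -0.11, -0.02 and 0.15 in the RWV and 0.82, 0.16 and 3.55 in the TCD at 4 h. It was above fresh cells in both vessels at 24 h, and higher in the dish, and TCD replicate 3 at 4 h was already raised. The interaction was -4.95 ± 0.88 (adjusted p = 0.00419). Tpm2, a tropomyosin of stress fibres, had a vessel difference of -5.22 ± 0.32 at 24 h and -0.67 ± 0.32 at 4 h, and an interaction of -4.55 ± 0.46 (adjusted p = 0.000142). Well-known members without a call were Ccn1, at 3.44 (adjusted p = 0.0806), and Tagln, Zyx and Vcl, at -0.26, -0.16 and 0.15. Centring each array on its median raised the lower count of this list to 10, and without TCD 4 h replicate 2 there was 1 higher call.

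Cytoskeletal and adhesion genes followed, in a minority of members. Over all genes tested, 4.93% had a higher and 7.73% a lower interaction. Of 43 actin cytoskeleton genes 2 had a higher and 8 a lower interaction, of 29 integrin and focal adhesion genes 1 had a higher and 5 a lower one, and of 26 TGF-beta and matrix genes 1 had a higher and 6 a lower one. On the array these lists had 44, 35 and 36 genes, and those not measured were set aside as background. Genes at background outside the dish at 24 h pass that filter only through it, which can raise the lower shares. Msn, the membrane linker moesin, had -4.10 ± 0.56 (adjusted p = 0.00101), and Enah, which extends actin filaments, had -3.61 ± 0.64 (adjusted p = 0.00406). Itga3, an integrin that binds laminin, had -2.70 ± 0.29 (adjusted p = 0.000212), and the kinase Src had -2.62 ± 0.44 (adjusted p = 0.00299). Thbs1, the matrix protein thrombospondin 1, had -4.75 ± 0.54 at 24 h and -0.23 ± 0.54 at 4 h, and an interaction of -4.52 ± 0.76 (adjusted p = 0.00313). Tuba1a was the 1 called gene of 16 for tubulins and their partners (-2.50 ± 0.46, adjusted p = 0.00507). Actb did not pass (-0.27 ± 0.15, adjusted p = 0.267).

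Krt19, a keratin of bile duct cells that is kept low in hepatocytes, read near the fresh value except in the dish at 24 h. At 4 h the array background medians were -0.081 to -0.023 in the RWV and 0.024 to 0.109 in the TCD. Krt19 lay close to them there and may have had no signal. It read -0.06, -0.04 and -0.11 in the RWV and 2.75, 4.60 and 5.37 in the TCD at 24 h, and -0.07, -0.03 and -0.04 in the RWV and 0.00, 0.09 and 0.02 in the TCD at 4 h (interaction -4.22 ± 0.65, adjusted p = 0.00185). Of the 6 measured cholangiocyte markers, Krt19, Cldn4 and Epcam had a lower interaction, and Sox9, Pkhd1 and Tff2, at -0.91, 0.08 and 0.17, were not called. The Epcam call (-1.18 ± 0.34, adjusted p = 0.0392) was kept only without RWV 4 h replicate 2 or 3, TCD 24 h replicate 1 or TCD 4 h replicate 1, with adjusted p up to 0.0796 in the other fits, and adjusted p was 0.194 for the mean of its probe sets. The median of the 6 ran from -0.04 to 0.28 on the RWV arrays and from 1.78 to 3.17 on the TCD arrays at 24 h. Of 13 listed cholangiocyte markers 11 were on the array, and the rest of these were set aside as background. A marker at background elsewhere passes that filter only through a group where it is high. The count and median of the 6 are therefore no separate support for a rise in the dish. Over all genes tested 7.73% had a lower interaction. Reln, listed as a stellate cell marker, had -4.78 ± 0.59 (adjusted p = 0.000558), while the other 8 of that list, among them Dcn, Pdgfrb and Des at 0.08, 0.26 and 0.14, were not called. Of 17 macrophage markers 1 was called, Cd68 (-1.06 ± 0.22, adjusted p = 0.00942), and the list median was 0.82. Its median ran from -0.02 to 2.34 on the RWV arrays and from -0.03 to 0.53 on the TCD arrays at 24 h. Of 13 sinusoidal endothelial markers 1 was higher and 1 lower, and 0 of 2 lymphocyte, 0 of 2 neutrophil and 0 of 4 erythroid and platelet markers were called by limma or had an unadjusted p below 0.05. The part of other cell types in these differences was not tested.

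**Figure D4:**
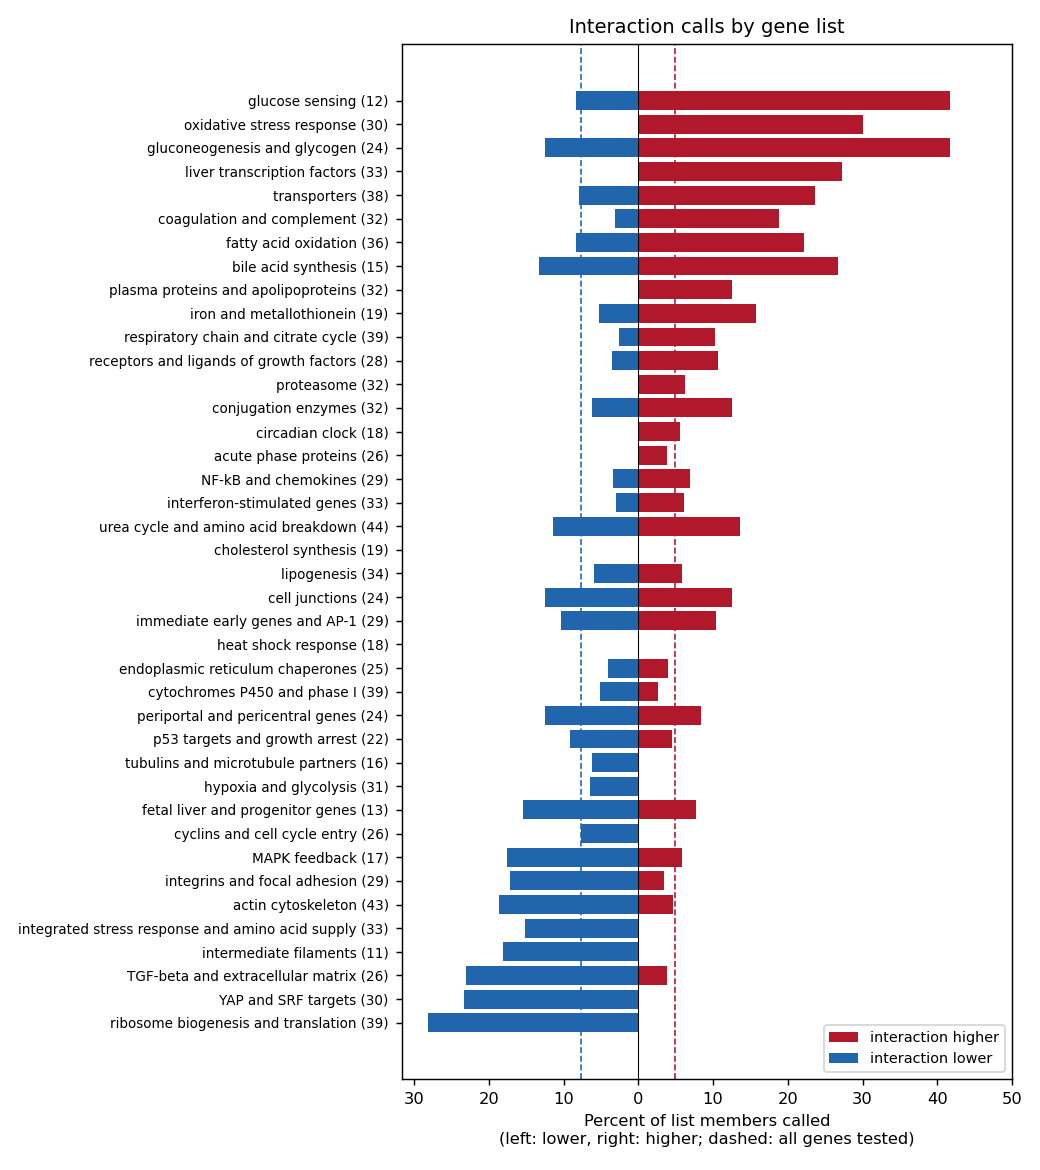
Percent of the measured members of each gene list with a called interaction, lower to the left and higher to the right; dashed lines mark the shares over all genes tested, 7.73% lower and 4.93% higher, and the number of measured members is in brackets. Process lists with at least 10 measured members are drawn. Glucose sensing and gluconeogenesis have the highest shares to the right, and ribosome biogenesis has the highest share to the left.

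Of the 351 vanishing genes, 338 were higher in the RWV at 4 h. This balance was seen with the background filter, and without it 519 vanished with a lower and 1386 with a higher interaction. Txnip had the largest difference. It encodes an arrestin-like protein that restrains glucose uptake and binds thioredoxin, and ChREBP drives it. It read -3.07, -3.59 and -2.72 in the RWV and -1.77, -2.87 and -2.04 in the TCD at 24 h, and 0.27, 2.91 and 1.82 in the RWV and -3.04, -3.01 and -1.37 in the TCD at 4 h. Only the RWV arrays at 4 h were above fresh cells, and replicate 1 was the lowest of them. The vessel difference was -0.90 ± 0.75 at 24 h (adjusted p = 0.531) and 4.14 ± 0.75 at 4 h (adjusted p = 0.00842), and the interaction was -5.04 ± 1.07 (adjusted p = 0.0102). In contrast to most vanishing genes, Txnip moved in the RWV, where 24 h minus 4 h was -4.79 ± 0.75 (adjusted p = 0.000268), while it was 0.25 ± 0.75 in the TCD (adjusted p = 0.788).

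In the other 5 at the top of this group the dish at 4 h was the lowest group. Zfc3h1, which helps to send nuclear RNA to the exosome, read 0.45, 0.85 and 1.03 in the RWV and 0.88, 0.98 and 1.24 in the TCD at 24 h, and -0.03, 0.00 and -0.01 in the RWV and -2.76, -3.45 and -4.06 in the TCD at 4 h. The dish at 4 h was below all other arrays, and the interaction was -3.67 ± 0.47 (adjusted p = 0.000641). Tmem43, a protein of the nuclear envelope and endoplasmic reticulum, read 5.23, 5.40 and 5.28 in the RWV and 5.85, 5.31 and 5.56 in the TCD at 24 h, and 2.37, 1.71 and 2.07 in the RWV and -0.11, -1.93 and -1.39 in the TCD at 4 h. The vessels overlapped at 24 h, and the RWV was above the TCD at 4 h (interaction -3.47 ± 0.64, adjusted p = 0.00517). Mapkapk3, a kinase downstream of p38, followed the same course with 3.64 to 4.76 in the RWV and 4.61 to 5.25 in the TCD at 24 h, and 1.53 to 3.44 in the RWV and 0.03 to 0.33 in the TCD at 4 h (interaction -3.30 ± 0.63, adjusted p = 0.00616). Peak1, a pseudokinase of focal adhesions, had -3.73 ± 0.66 (adjusted p = 0.00399), and the zinc finger gene Zfp518b had -3.15 ± 0.38 (adjusted p = 0.000474). Both had a 24 h difference in the opposite direction, -1.01 ± 0.46 and -0.57 ± 0.27, that did not pass the test.

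The size of this class rests on few arrays. Without TCD 4 h replicate 2, 249 genes vanished, 202 of them among the 351, and 295 of the 351 still had a called interaction. Without RWV 4 h replicate 3, 204 vanished, 193 of them with a lower interaction. The 6 genes with a lower interaction described above kept both their call and their class in all 12 fits that left out an array.

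Ribosome biogenesis had the highest share of lower interactions among the process lists with at least 10 measured members. Of 39 measured genes 0 had a higher and 11 a lower interaction, against 4.93% and 7.73% of all genes, and the median was -0.65. The list median was -0.32 for the vessel difference at 24 h and 0.41 for that at 4 h. The 11 fell into different classes, with 4 vanishing, 3 appearing, 1 reversing and 3 called at neither time. Nop2, a methyltransferase of the large ribosomal subunit RNA, had -0.35 ± 0.20 at 24 h, 1.08 ± 0.20 at 4 h and an interaction of -1.43 ± 0.28 (adjusted p = 0.00652). Tsr1, which matures the small subunit, reversed, with -0.70 ± 0.14 at 24 h, 0.88 ± 0.14 at 4 h and an interaction of -1.58 ± 0.20 (adjusted p = 0.000664). Eif4e, the cap-binding initiation factor, appeared (-2.15 ± 0.51, adjusted p = 0.0166). The lower count was 12 without TCD 4 h replicate 2. Myc, the transcription factor that drives this programme, had -0.11 and was not called.

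The integrated stress response, by which cells short of amino acids or with unfolded proteins induce ATF4 and its targets, showed a like pattern with fewer calls. Of 33 measured genes 0 had a higher and 5 a lower interaction, against 4.93% and 7.73% of all genes, with a median of -0.52. The median vessel difference was -0.09 at 24 h and 0.56 at 4 h. Psat1, of serine synthesis, had -0.50 ± 0.25 at 24 h, 1.08 ± 0.25 at 4 h and an interaction of -1.58 ± 0.35 (adjusted p = 0.0123). Atf4 (-1.03 ± 0.27, adjusted p = 0.0291) and Mthfd2 (-1.41 ± 0.38, adjusted p = 0.0314) were called. Atf4 kept its call only without RWV 24 h replicate 1 or TCD 4 h replicate 2, with adjusted p up to 0.0745 in the other fits. Mthfd2 kept it only without RWV 24 h replicate 1, TCD 24 h replicate 3, or TCD 4 h replicate 1 or 2, with adjusted p up to 0.0772 in the others. Fgf21, a hormone induced by ATF4 in liver, did not pass, and its vessel difference was large at both times, 5.80 ± 0.61 at 24 h and 5.06 ± 0.61 at 4 h (interaction 0.74 ± 0.86, adjusted p = 0.623).

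The 13 vanishing genes with a higher interaction were higher in the dish than in the RWV at 4 h. Their number was 30, 21 and 37 without TCD 4 h replicate 1, 2 and 3. Btg2, an antiproliferative immediate early gene, read -1.52, -1.04 and -0.86 in the RWV and -0.64, -0.97 and -1.06 in the TCD at 24 h, and -1.32, -1.08 and 0.03 in the RWV and 1.32, 2.20 and 2.01 in the TCD at 4 h. The dish at 4 h was above every other array, and the interaction was 2.38 ± 0.47 (adjusted p = 0.00709). Herc4, a ubiquitin ligase, read -0.05, -0.06 and -0.09 in the RWV and -0.05, -0.06 and -0.07 in the TCD at 24 h, and -0.08, 1.17 and 0.15 in the RWV and 3.04, 3.50 and 1.89 in the TCD at 4 h (interaction 2.39 ± 0.51, adjusted p = 0.0105). Its 24 h values lay close to the array background medians, -0.077 to -0.046 in the RWV and -0.076 to -0.046 in the TCD. They may be an absent signal. Kdm6b, a histone demethylase, Srrm4, a splicing regulator, and Rgs2, which dampens G protein signals, had 2.35 ± 0.51 (adjusted p = 0.0111), 2.21 ± 0.50 (adjusted p = 0.0144) and 2.01 ± 0.49 (adjusted p = 0.0202). Rgs2 lost its call without TCD 24 h replicate 2 (adjusted p = 0.0532) or 3 (adjusted p = 0.0515), with its probe sets averaged (0.0671), and with shared-sequence probe sets left out (0.0995). Kdm6b lost its call with its probe sets averaged (adjusted p = 0.0596). Abca1, the cholesterol exporter, read 2.06, 3.16 and 2.64 in the RWV and 4.09, 4.68 and 3.75 in the TCD at 4 h and had an interaction of 1.96 ± 0.53 (adjusted p = 0.0309). Its call was lost in 6 fits, without RWV 24 h replicate 2 or 3, RWV 4 h replicate 1 or 3, TCD 24 h replicate 1 or TCD 4 h replicate 2, with adjusted p from 0.0561 to 0.07.

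In 54 genes the order of the vessels turned round, 45 of them higher in the RWV at 4 h and lower at 24 h. Cpe, carboxypeptidase E, which trims peptide hormones, read 6.13, 7.25 and 7.29 in the RWV and 9.56, 9.94 and 9.83 in the TCD at 24 h, and 3.08, 3.38 and 3.35 in the RWV and 2.44, 2.08 and 1.52 in the TCD at 4 h. It was above fresh cells in all cultures. Neither pair of groups overlapped, which the rule for naming a reversing gene required. The difference was -2.89 ± 0.29 at 24 h (adjusted p = 4.46e-05) and 1.25 ± 0.29 at 4 h (adjusted p = 0.0252), for an interaction of -4.14 ± 0.41 (adjusted p = 0.000127). Ccdc86, a nucleolar protein, read 0.14, 0.36 and -0.11 in the RWV and 2.72, 2.22 and 2.04 in the TCD at 24 h, and 1.55, 1.12 and 2.69 in the RWV and 0.22, 0.50 and 0.41 in the TCD at 4 h (interaction -3.61 ± 0.45, adjusted p = 0.000558). C1ql3, a secreted C1q-like protein, had 2.30 to 3.60 in the RWV and 3.84 to 4.79 in the TCD at 24 h, and 2.58 to 2.84 in the RWV and 0.15 to 1.06 in the TCD at 4 h (interaction -3.44 ± 0.48, adjusted p = 0.00113).

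Zfp467, a zinc finger transcription factor, turned the opposite way. It read -1.81, -1.18 and -0.53 in the RWV and -3.58, -3.54 and -3.64 in the TCD at 24 h, and -3.61, -3.19 and -3.69 in the RWV and -2.57, -2.16 and -2.57 in the TCD at 4 h. The RWV was the lower vessel at 4 h and the higher one at 24 h, with an interaction of 3.48 ± 0.38 (adjusted p = 0.000212). With probe sets marked as shared between transcripts left out, another probe set stood for Zfp467 and was not called (adjusted p = 0.213). Grhl1, an epithelial transcription factor, had -1.52 ± 0.32 at 24 h and 1.48 ± 0.32 at 4 h. Sf3a2, a splicing factor of the U2 particle, read 1.39, 1.38 and 1.39 in the RWV and 2.62, 2.68 and 3.12 in the TCD at 24 h, and 2.05, 2.01 and 2.38 in the RWV and 0.39, -0.03 and 1.39 in the TCD at 4 h (interaction -2.98 ± 0.39, adjusted p = 0.000822). The long non-coding RNA Tug1 had -1.17 ± 0.33 at 24 h and 1.63 ± 0.33 at 4 h, and Micall1, of endosome recycling, had -1.45 ± 0.30 and 1.26 ± 0.30.

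All 54 kept a called interaction in each of the 12 fits with an array left out, but membership of the reversing class needs 3 calls at once and was less stable, with 28 to 66 genes in those fits, the fewest without RWV 24 h replicate 2 or RWV 4 h replicate 3. The 45 with a lower interaction were 24 to 29 without RWV 24 h replicate 2 or 3, RWV 4 h replicate 1 or 3, or TCD 24 h replicate 2 or 3. The 9 with a higher one were 1 to 5 without these arrays or RWV 4 h replicate 2. Of the 8 genes from Cpe to Micall1, Sf3a2 stayed in the class in all 12. Without TCD 4 h replicate 2, Cpe, Ccdc86, Zfp467 and Grhl1 had no called difference at 4 h. Without RWV 24 h replicate 2, C1ql3 and Tug1 had none at 24 h, and without RWV 4 h replicate 3, Micall1 had none at 4 h.

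Fos, the AP-1 subunit, also reversed. It read -4.13, -3.00 and -3.54 in the RWV and -4.11, -4.90 and -5.25 in the TCD at 24 h, and -3.34, -3.57 and -3.58 in the RWV and -1.81, -1.99 and -1.31 in the TCD at 4 h. The vessels overlapped at 24 h and not at 4 h, where the dish was higher, and the interaction was 2.99 ± 0.45 (adjusted p = 0.00171). The 24 h call was lost without RWV 24 h or TCD 24 h replicate 2 or 3. Of 29 measured immediate early genes 3 had a higher and 3 a lower interaction, the lower ones including Klf4 (-2.33 ± 0.53, adjusted p = 0.0144), and the list median was -0.01. Over all genes the shares were 4.93% and 7.73%. Of 17 MAPK feedback genes 1 had a higher (0 without TCD 4 h replicate 2) and 3 a lower one, and Dusp14 and Dusp5, both dual-specificity phosphatases, had -3.17 ± 0.58 (adjusted p = 0.00478) and -1.63 ± 0.29 (adjusted p = 0.00411).

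In 4 genes the difference was called at both times in the same direction with a called interaction. Lcp1, an actin-bundling protein of blood cells, was lower in the RWV at both times and more so later. It read 0.40, 0.10 and 0.34 in the RWV and 2.42, 2.94 and 2.55 in the TCD at 24 h, and 0.14, 0.56 and 0.15 in the RWV and 1.37, 1.48 and 1.59 in the TCD at 4 h (interaction -1.16 ± 0.22, adjusted p = 0.00546). Mtmr11, a myotubularin-related protein, was above fresh cells in both vessels at 24 h and in the RWV at 4 h. It read 6.60, 6.44 and 6.87 in the RWV and 6.39, 6.17 and 6.28 in the TCD at 24 h, and 1.91, 1.94 and 1.94 in the RWV and 0.13, 0.06 and 0.12 in the TCD at 4 h (interaction -1.47 ± 0.15, adjusted p = 0.000137). The other 2 lost their calls with an array left out. Ern1, the IRE1 sensor of unfolded proteins, had 0.90 ± 0.23 (adjusted p = 0.0235), adjusted p = 0.0607 without TCD 24 h replicate 3, and adjusted p = 0.648 with its probe sets averaged. Ddx28, a mitochondrial helicase, had -0.84 ± 0.22 (adjusted p = 0.0249), and adjusted p from 0.0513 to 0.0647 without RWV 24 h replicate 2 or 3, RWV 4 h replicate 1 or TCD 24 h replicate 1.

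Hypoxia and glycolysis genes differed between the vessels at both times as a list and gave few interactions. Of 31 measured genes of hypoxia and glycolysis 0 had a higher and 2 a lower interaction, against 4.93% and 7.73% of all genes. The median vessel difference was -0.88 at 24 h and -0.82 at 4 h, with 17 genes called lower in the RWV at 24 h and 9 at 4 h, against 6.86% and 0.668% of all genes. Hk1, a hexokinase that adult hepatocytes keep low, was called with Slc16a3. It read 0.49, -0.54 and 0.48 in the RWV and 4.75, 6.45 and 6.54 in the TCD at 24 h, and 0.24, -0.07 and -0.12 in the RWV and 0.57, 1.35 and 1.69 in the TCD at 4 h (interaction -4.59 ± 0.63, adjusted p = 0.00105). Hk2 and the muscle pyruvate kinase gene Pkm were not called for the interaction, at -0.80 ± 0.96 (adjusted p = 0.633) and 0.65 ± 0.42 (adjusted p = 0.347). The glucose transporter gene Slc2a1 had a vessel difference of -1.13 ± 0.39 at 24 h and -2.13 ± 0.39 at 4 h, with no interaction call (adjusted p = 0.261). Without RWV 24 h replicate 2 its interaction was 1.58 and was called (adjusted p = 0.00925). Vim, the intermediate filament of mesenchymal cells, was lower in the RWV at both times, -2.38 ± 0.57 at 24 h and -2.69 ± 0.57 at 4 h (interaction 0.31 ± 0.81, adjusted p = 0.841). Of 19 cholesterol synthesis genes and 18 heat shock genes, 0 were called for the interaction by limma, and 0 and 2 of them had an unadjusted p below 0.05. Cholesterol synthesis also had 0 vessel calls at either time. Heat shock had 4 of 18 genes higher and 1 lower in the RWV at 24 h, against 8.36% and 6.86% of all genes. Its median vessel difference at 24 h was 0.44. At 4 h, 1 heat shock gene was higher and 0 were lower, against 5.5% and 0.668% of all genes, with a median of 0.22.

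The remaining lists stood near the shares of all genes (4.93% higher and 7.73% lower) or had too few calls to set apart. Of 39 cytochromes P450 and phase I enzymes 1 was higher and 2 lower, of 32 conjugation enzymes 4 and 2, of 26 acute phase proteins 1 and 0, and of 34 lipogenic genes 2 and 2. Of 39 respiratory chain and citrate cycle genes 4 were higher and 1 lower, of 32 proteasome genes 2 and 0, of 25 endoplasmic reticulum chaperones 1 and 1, and of 18 clock genes 1 and 0. Of 29 NF-kB and chemokine genes 2 were higher and 1 lower, of 33 interferon-stimulated genes 2 and 1, of 22 p53 targets 1 and 2, and of 26 cyclins and cell cycle genes 0 and 2. Of 19 iron and metallothionein genes 3 were higher and 1 lower, of 28 growth factor receptors and ligands 3 and 1, of 13 fetal liver genes 1 and 2, and of 24 periportal and pericentral genes 2 and 3. Of 24 cell junction genes 3 were higher and 3 lower, and of 11 intermediate filaments 0 and 2. Without TCD 4 h replicate 2 the NF-kB list had 0 higher, the proteasome list 4 higher and the interferon list 1 higher, and the P450 and fetal liver lists had 1 lower each and the iron list 0 lower. Among the called members, Afp, the fetal albumin, had 1.64 ± 0.39 (adjusted p = 0.0177), Glul, glutamine synthetase of pericentral cells, had 1.10 ± 0.26 (adjusted p = 0.0161), Hjv, the hemojuvelin that induces hepcidin, had 3.79 ± 0.84 (adjusted p = 0.0125), and Klb, the co-receptor for FGF21, had 2.53 ± 0.51 (adjusted p = 0.00809). Psmb8, an immunoproteasome subunit, had 1.99 ± 0.40 (adjusted p = 0.0083), and Acaca, the first enzyme of fatty acid synthesis, had 1.66 ± 0.29 (adjusted p = 0.00384).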

How the data were processed

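RNA from primary mouse hepatocytes was measured on Affymetrix arrays. The values the authors deposited are log2 signals made with GCRMA, per the submitters' processing notes, which give no version. In all 45101 probe sets the 3 fresh arrays had a median of 0 (tolerance 1e-06), which shows that it was taken off before deposit. Of the probe sets 64 were controls, 34945 had 1 symbol, 932 several and 9160 none, and 34741 matched a current mouse gene by Entrez number. A probe set was left out as background (19608, 12849 of them with 1 symbol) when its SD was below 0.5 and it correlated above 0.8 with the array-wise median of the quietest 20%. Each gene was then represented by its most variable probe set, which left 12423 of 18193 genes, 5611 of them with several.

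Group means of all 15 arrays were fitted with limma 3.58.1 in R 4.3.3 (lmFit, contrasts.fit, eBayes), with 10 residual degrees of freedom, and a call is an adjusted p below 0.05. The script was tested on simulated data. Named genes are those with the largest interactions in each class and direction whose vessels do not overlap at the called time (8 a direction that appear, 6 a direction that vanish, 8 that reverse, 3 a direction that are kept), up to 3 called members of each list, and 15 set genes. The members, lists and rules were chosen with earlier results of these data known. Depth does not apply to arrays. Promoter windows came from RefSeq (GRCm38.p6), for 120 of 140 named genes.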

Additional observations from a re-analysis of the deposited data

Results flagged for a closer look

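The interaction is itself a test of whether the vessel difference changes with time, so all 613 genes with a higher and 960 with a lower interaction by limma meet the criterion of a contrast that differs between 2 time points. Those in which the direction turned round are repeated here with their interaction, RWV minus TCD at 24 h less that at 4 h. The 8 named genes, those with the largest interactions whose vessels did not overlap at either time, were Cpe at -4.14, Ccdc86 at -3.61, Zfp467 at 3.48, C1ql3 at -3.44, Grhl1 at -3.00, Sf3a2 at -2.98, Tug1 at -2.80 and Micall1 at -2.71. Fos, at 2.99, also reversed but overlapped at 24 h. Groups of 3 arrays are too small for a test of outlying values.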

How the results depend on the processing

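None of the named genes' interactions that were called changed sign under the alternatives run, but the balance of counts did. Array weights were 3.23, 0.171 and 0.651 for TCD 4 h replicates 1, 2 and 3, so that group's mean rested largely on replicate 1. They raised the interaction calls to 2760 (1221 higher, 1539 lower), the 24 h calls to 3057 and the 4 h calls to 1287. With them 937 and 701 genes appeared, 118 vanished with a higher interaction, and 29 and 120 reversed (higher and lower each time). With no background filter 3147 interactions were called (2043 higher, 1104 lower, against 613 and 960), 6928 genes differed at 4 h, 1386 and 519 vanished (13 and 338 with the filter) and 30 and 74 reversed. The 13 vanishing genes with a higher interaction became 24 with every probe set tested, 25 with only the 12 cultured arrays and 21 with the replicate number as a block. The replicate block, which the main fit does not have, gave 1895 interaction calls (744 higher, 1151 lower), 2193 calls at 24 h and 860 at 4 h. It also gave 15 reversing genes with a higher interaction. Same-numbered arrays deviated together, with correlations from 0.069 to 0.522, and with every correlation above 0.1 in 3 of 6 pairs of groups. Each of the 12 arrays correlated best with a same-numbered one, a hint from the data and not the design.

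Over the 12 fits that each left out an array, the 24 h calls ranged from 1234 to 2280 and the 4 h calls from 390 to 994. Appearing genes with a higher interaction ranged from 366 to 649, vanishing genes from 10 to 37 with a higher and from 193 to 472 with a lower interaction, and reversing genes from 1 to 9 and from 24 to 58. The interaction calls themselves ranged from 1070 to 1667.

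Of 131 called genes among the 140 named, 99 kept their call in all 12 fits with an array left out. For 55 of the 131 no other probe set off the background was available, and 0 of the named genes had another probe set called in the opposite direction. List counts without TCD 4 h replicate 2 and with median centring were added after the data were seen. Over the gene lists, leaving out TCD 4 h replicate 2 gave 11 higher oxidative stress genes in place of 9 and 8 higher gluconeogenesis genes in place of 10. Median centring gave 588 higher and 1156 lower interactions. With 3 arrays a group, small differences could not be detected.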

Other observations

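Genes with symbols of zinc finger families (Zfp, Zkscan, Zscan, Zbtb, Zik or Znf) were counted after the vanishing genes had been seen, so the count is a description. Of 335 tested, 4 had a higher and 59 a lower interaction, against 4.93% and 7.73% of all genes, and their median interaction was -0.42. At 4 h, 75 were called higher in the RWV and 2 lower, with a median difference of 0.36. They made up 12.7% of the 338 vanishing genes with a lower interaction, 2.14% and 0.363% of the appearing genes with a lower and a higher interaction, and 2.7% of all genes tested. Without TCD 4 h replicate 2 the counts were 3 higher and 54 lower. Zinc finger families hold many similar sequences, and probe sets of different members may share signal.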
